A study of Homo sapiens with 30 samples.

Results

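Collagen chains are modified while they enter the endoplasmic reticulum and are cross-linked after secretion. Prolyl 4-hydroxylase, a tetramer of catalytic alpha subunits (P4HA1, P4HA2) and of protein disulfide isomerase (P4HB), hydroxylates proline and so stabilises the triple helix, lysyl hydroxylases (PLOD1, PLOD2, PLOD3) hydroxylate lysine, the chaperone HSP47 (SERPINH1) binds the folded procollagen, and the secreted amine oxidases LOX and LOXL2 start the cross-links between collagen molecules. LARP6 is an RNA-binding protein best known for binding the mRNAs of type I collagen at a stem-loop in their 5'UTR. The question here was where it crosslinks to the mRNAs of proteins that act on collagen.

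The 9 genes named above were selected by name, and all 9 were present among the 62750 genes with counts. Peaks were taken as theirs when the centre lay inside the gene on the same strand (GENCODE, GRCh38). They held 70 of the 14334 peaks of full-length LARP6, 90 of the 17180 peaks of ΔNTR, 84 of the 15870 peaks of ΔCTR, 3 of the 636 peaks of ΔLa-module and none of the 291 peaks of ΔNTD.

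The peaks came from iCLIP, in which ultraviolet light crosslinks a protein to the RNA it touches and the position of the crosslink is read from the truncated cDNA. The cells were U-87 MG, a glioblastoma cell line. Stable populations carried a doxycycline-inducible, myc-tagged and codon-optimised LARP6 in addition to their own LARP6. It was the full-length protein (FL), or the protein without its disordered N-terminal region (ΔNTR), without the folded La-module that contacts RNA (ΔLa-module) or without both (ΔNTD). In ΔCTR the C-terminal region at the end of the protein was missing, while the stretch directly after the La-module was kept. The parental line carried no myc-tagged protein, and all 6 lines, the parental one included, were given doxycycline at 60 ng/mL for 24 h. Each peak list pools 3 iCLIP replicates of a line, and each line had 1 long-RNA input library (called PE150 here, 150 nt paired-end reads), so no difference between lines was tested against a spread between replicates. Intervals are 95% intervals for counting error only.

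Peak scores summed to 102788 in the FL list, 118751 in that of ΔCTR and 92958 in that of ΔNTR, but to 2320 with ΔLa-module and 999 with ΔNTD, and 51.1 to 82.8% of the peaks of a list stood at the lowest score of 3. Counts in genes ran from 25027075 to 28692476 per PE150 library. Among 6 genes that mark U-87 MG and like cells (VIM, CD44, FN1, EGFR, TNC, NES) all were counted, with a summed level of 16137 to 17890 CPM (counts scaled to library size) per line. Of 6 markers of blood, endothelial, epithelial, neuronal and myelinating cells, PTPRC and CDH5 stayed under 1 CPM in every line. PECAM1, EPCAM and MBP stood between 0.978 and 3.88 CPM. The sum of the 6 was 62.5 to 72.0 CPM and mostly SNAP25. At 57.9 to 65.7 CPM, SNAP25 was above NES (52.0 to 57.7 CPM) in every line, so the marker lists do not separate gene by gene. Endogenous LARP6 lay between 51.6 and 75.0 CPM, and whether reads of the codon-optimised transgene enter these counts was not tested.

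Sites of 6 members are shown first, because they differ in position and in sequence. They are the sites of the highest FL score, except that for LOX the site of the highest score in any list was taken, and they include P4HA2, whose FL score there was only 5, for its place at an exon edge. Each is read 5' to 3' in the sense of the mRNA from GRCh38, with 30 nt printed inside 1 exon. Capitals mark the bases covered by a peak in all of the FL, ΔNTR and ΔCTR lists, or the central 30 of them where the shared stretch was longer.
P4HA1: GATGTGCCTAGGTGTTCTGTTTACCTAGTG
P4HA2: ctgggCCAACAAAATGGAAGCCTtgactag
P4HB: GGACTGGACATGGTCACTCAGTACCGCCTG
PLOD1: gacttcTGCCTCCATGGCTGGTCAtgagag
PLOD2: ctTTGATGTCATATTTGCTGGTggtccaga
LOX: CAGAGCTTTTGTTGAGCTGTAACTGAGCTA

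The P4HA1 stretch (chr10:73007804-73007833, minus strand), the P4HB stretch (chr17:81843527-81843556, minus strand), the PLOD1 stretch (chr1:11975300-11975329, plus strand) and the LOX stretch (chr5:122065082-122065111, minus strand) lay in 3'UTRs. The P4HA2 stretch (chr5:132217319-132217348, minus strand) and the PLOD2 stretch (chr3:146110419-146110448, minus strand) lay in coding exons. Both printed coding sites were in exon 4 of their mRNA and at its 5' edge. The shared bases began 2 nt inside the exon in PLOD2 and 5 nt inside it in P4HA2. Since P4HA2 was picked for its edge, the likeness of these sites carries no weight. The LOXL2 coding site in exon 12, with an FL score of 20, was not printed. Its distance to an exon edge was not taken. The capitals held 17 pyrimidines of 30 bases in P4HA1, 15 of 30 in P4HB and LOX, 11 of 18 in PLOD1, 12 of 20 in PLOD2 and 7 of 18 in P4HA2.

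Full-length LARP6 had at least 1 peak in every one of the 9 genes. For comparison, 47.8% of the protein-coding genes that reached 10 CPM in the FL input held an FL peak. The share was 48.7% for ΔNTR and 50.8% for ΔCTR, and in both of these lists all 9 members again held a peak. Peaks were called in each replicate from a minimum of 3 counts, and their scores were then summed. A score of 3 to 5 can thus stem from 1 replicate. No FL peak of PLOD3, SERPINH1 or P4HA2 scored above 5. In ΔLa-module 3 members (LOX, P4HA1 and P4HB) held 1 peak each against 4.59% of such genes, and in ΔNTD no member did against 2.45%. These shares include many genes less abundant than the members. Among genes within 1.5-fold of the CPM of a member, the share with an FL peak was higher. It ran from 57.8% for PLOD3 to 95.8% for P4HB. No such share was taken for ΔLa-module or ΔNTD. The 3 peaks of ΔLa-module scored 4 in LOX, 3 in P4HA1 and 3 in P4HB. Of these, the P4HB peak lay inside the strongest FL peak of that mRNA, and the peaks in LOX and P4HA1 overlapped no peak of the other lists.

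**Figure D1:**
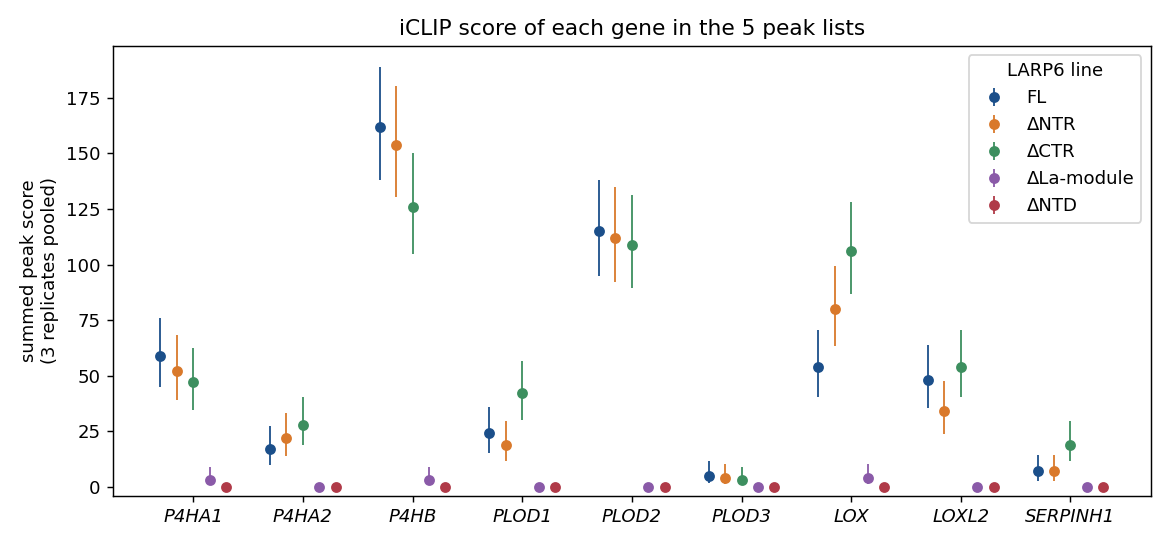
Summed peak score (y axis) of each of the 9 genes in the FL, ΔNTR, ΔCTR, ΔLa-module and ΔNTD lists. Points are sums over 3 pooled replicates and bars 95% Poisson intervals, drawn for sums above 0. P4HB and PLOD2 hold the highest sums in the 3 lists with an intact La-module, PLOD3 and SERPINH1 the lowest in the FL list, and the points of ΔLa-module and ΔNTD lie between 0 and 4.

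The members were far from alike in score. In the FL list the summed score was 162 for P4HB (138 to 189), 115 for PLOD2 (94.9 to 138) and 59 for P4HA1 (44.9 to 76.1). It was 54 for LOX, 48 for LOXL2, 24 for PLOD1 and 17 for P4HA2. SERPINH1 had 7 (2.81 to 14.4) and PLOD3 had 5 (1.62 to 11.7). Together the 9 genes held a score of 491, and 34 of their 70 peaks were at the score of 3.

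More abundant mRNAs give more crosslinks, so each sum was also set against the PE150 counts of the gene in the same line. P4HA1 then led with 13.5 per 1000 counts in FL (10.3 to 17.5), followed by P4HB at 8.03, PLOD2 at 8.01, LOX at 6.33 and LOXL2 at 5.35. The intervals of P4HB (6.84 to 9.36) and PLOD2 (6.61 to 9.61) covered one another almost whole, and that of LOX (4.75 to 8.26) overlapped both. PLOD1 stood at 4.28, P4HA2 at 2.701, PLOD3 at 2.32 and SERPINH1 at 2.23.

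The median over the 4340 protein-coding genes of at least 10 CPM with an FL peak was 3.38 per 1000 counts. It lay below the intervals of P4HA1, P4HB, PLOD2, LOX and LOXL2 and inside those of PLOD1, P4HA2, PLOD3 and SERPINH1. Of the 1541 genes within 1.5-fold of the CPM of P4HA1, 94.7% had a lower FL score. That share was 86.8% of 189 genes for P4HB and 83.7% of 313 genes for PLOD2, and 60.9% of 2002 genes for SERPINH1.

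The type I collagen mRNAs stood higher than all 9 members on this measure. COL1A1 had 22.1 per 1000 counts (20.1 to 24.2) and COL1A2 14.7 (12.99 to 16.5) in the FL list. The interval of P4HA1 overlapped that of COL1A2 and lay below that of COL1A1.

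**Figure D2:**
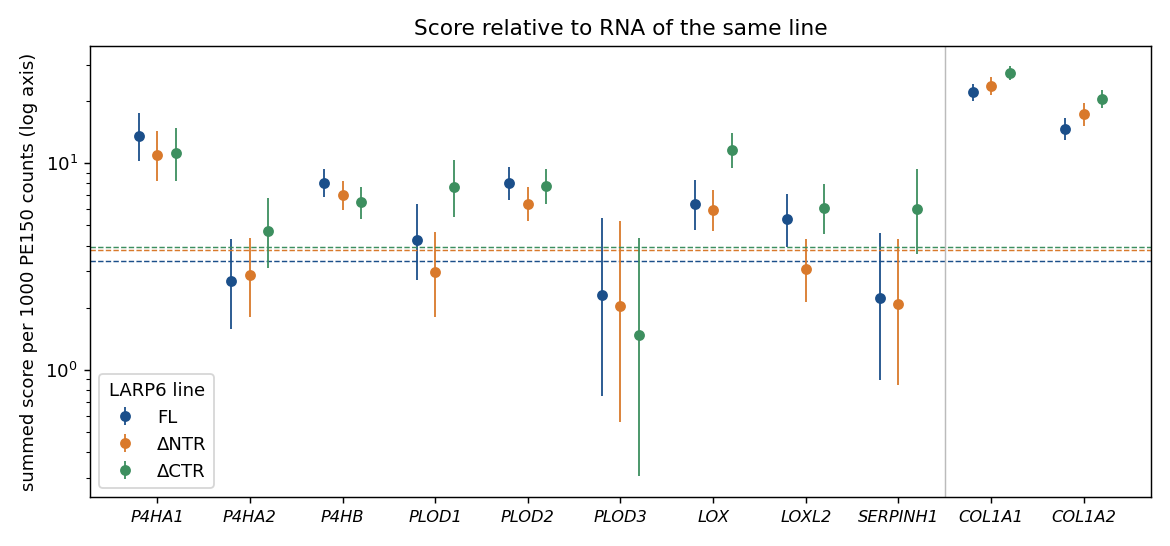
Summed score per 1000 PE150 counts of the same line (y axis, log) for the 9 genes and, right of the grey line, for COL1A1 and COL1A2. Bars are 95% Poisson intervals of the score and dashed lines the median over genes with a peak in that list (3.38 in FL, 3.79 in ΔNTR, 3.94 in ΔCTR). P4HA1 is the member nearest to the collagens in FL and ΔNTR and LOX in ΔCTR (11.6 against 11.2 for P4HA1), and PLOD3 lies under the dashed lines in all 3 lists.

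The members also differed in where the peaks lay. Over the 70 FL peaks, 35 lay in coding sequence, 31 in 3'UTRs, 2 in 5'UTRs and 2 in introns. The coding share was 50.0% (38.6 to 61.4), against 36.4% of all FL peaks. The 3'UTR share was thus 44.3% (33.2 to 55.9) of the member peaks and 47.7% of all FL peaks. Both shares depend on the annotation. Where a base that is coding in 1 transcript and 3'UTR in another was called 3'UTR, the 3'UTR share was 78.6% of the member peaks and 57.9% of all FL peaks. The coding share was then 15.7% and 26.2%, so its order turned. On the canonical transcript of each gene the 3'UTR share of the member peaks was 44.3%, and the coding share 48.6% against 35.6% of all FL peaks. Peaks of 1 mRNA are not independent, which the intervals leave out.

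P4HA1, the alpha subunit with the higher score, showed 1 dominant site. The FL peak at chr10:73007784-73007834 (minus strand) scored 50, which was 84.7% of the gene's score, and the other 3 FL peaks scored 3 each. The site lay in exon 15, in the 3'UTR, 416 nt past the end of the coding sequence. ΔNTR had a peak of 54 nt and score 33 at the same place, and ΔCTR had adjoining peaks of 21 and 20. All 3 lists thus placed their strongest P4HA1 signal within the same stretch.

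P4HA2, the other alpha subunit, had no FL peak above 5. Its strongest FL peak lay at the exon 4 edge, with a score of 5 in the FL list, 6 for ΔNTR and 12 for ΔCTR. In exon 14, 96 to 109 nt before the end of the coding sequence, ΔNTR scored 6 and ΔCTR 9 with no FL peak. P4HA2 differed from P4HA1 in that 64.7% of its FL score was in coding sequence against 10.2%.

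P4HB carried peaks all along its 3'UTR. Of its 20 FL peaks, 8 lay there and held a score of 104 of 162. The strongest, at chr17:81843450-81843564 (minus strand), was 115 nt wide and scored 33. The next, centred 287, 147, 223 and 73 nt past the coding sequence, scored 21, 14, 11 and 11. The only FL peak of 10 or more in its coding sequence was in exon 9 and scored 10.

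The stretches were divided into peaks differently in the other lists. ΔNTR had its highest P4HB peak, of 22, at 163 nt past the coding sequence, and further peaks of 17, 14 and 11 at 417, 257 and 553 nt. ΔCTR had its highest, of 21, at 289 nt and the next, of 19, at 492 nt. The stretch of the strongest FL peak was split in both, into peaks of 19, 5 and 3 in ΔCTR and of 11 and 8 in ΔNTR, so single peak scores do not rank these sites.

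**Figure D3:**
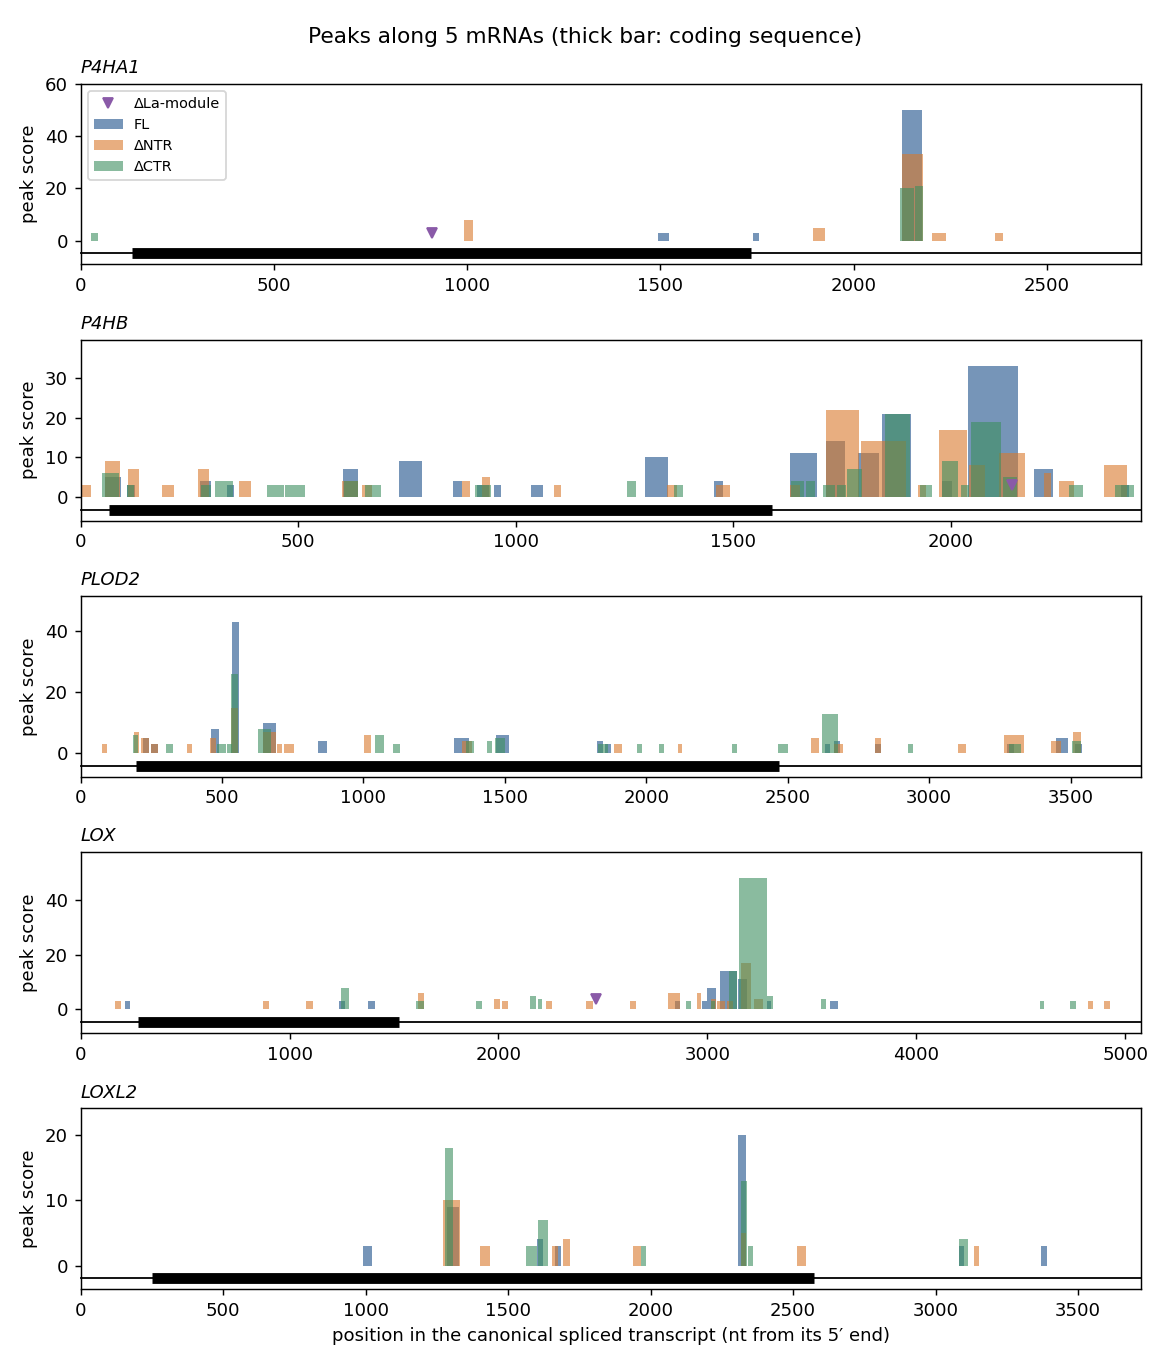
Peak scores (y axis) along the canonical spliced mRNAs of P4HA1, P4HB, PLOD2, LOX and LOXL2 (x axis, nt from the 5' end). Bars are peaks of the FL, ΔNTR and ΔCTR lists drawn at their width, triangles are ΔLa-module peaks and the thick black bar is the coding sequence. P4HA1 has 1 dominant 3'UTR site, P4HB a row of 3'UTR peaks, PLOD2 and LOXL2 sites in the coding sequence, and LOX a 3'UTR cluster with a ΔCTR peak of 48.

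Among the lysyl hydroxylases PLOD2, which acts on the telopeptide lysines of collagen, had most of its score in coding sequence. Its FL peak at chr3:146110424-146110446 (minus strand), at the 5' edge of exon 4, scored 43 or 37.4% of the gene. The same site scored 15 in ΔNTR and 26 in ΔCTR, the highest PLOD2 peak of each list. A further exon 4 peak had 10 in the FL list, against 7 for ΔNTR and 8 for ΔCTR. In the 3'UTR, 181 nt past the coding sequence, ΔCTR scored 13 over bases where FL had peaks of 4 and 3.

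PLOD1 had 3 FL peaks, of which the strongest scored 13 in the 3'UTR, 503 nt past the coding sequence. ΔCTR scored 17 there and ΔNTR 5. The ΔCTR list had a further peak of 9 just upstream, centred 463 nt past the coding sequence, that no FL peak overlapped. PLOD3, a lysyl hydroxylase that also adds glucose to galactosylated hydroxylysine, had 1 peak in each of these lists, always at the same place in the 5'UTR. The FL peak scored 5, that of ΔNTR 4 and that of ΔCTR 3, and they were centred 95 to 100 nt before the start codon.

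LOX was bound mainly in its 3'UTR, which held 7 of 10 FL peaks and 83.3% of the FL score. The FL peaks clustered 1496 to 1643 nt past the coding sequence, where they scored 8, 14 and 11. ΔNTR had its highest LOX peak, of 17, at 1660 nt. ΔCTR had a peak of 133 nt and score 48 at 1693 nt (chr5:122064987-122065119, minus strand), next to one of 14 at 1598 nt. This peak of 48 was the highest member peak of the ΔCTR list, and the FL peak that it overlapped scored 11.

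LOXL2 differed from LOX in that 81.2% of its FL score lay in coding sequence. Its highest FL peak, of 20, was in exon 12, where ΔCTR scored 13 and ΔNTR 5. In exon 6 the order was another, with 9 in FL, 18 in ΔCTR and 10 in ΔNTR.

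SERPINH1, the collagen-specific chaperone, had only 2 FL peaks, of 4 and 3, both in the 3'UTR. ΔNTR had 2 peaks of 4 and 3, and ΔCTR had 4 peaks of 7, 5, 4 and 3. No base of this mRNA was covered by a peak in all of these lists. At 197 to 203 nt past the coding sequence ΔNTR scored 4 and ΔCTR 7 without an FL peak.

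The 5'UTR held much of the score of the collagen mRNAs and little of that of the members. Peaks in 5'UTRs held a score of 8 of 491 over the members for FL, 19 of 484 for ΔNTR and 12 of 534 for ΔCTR. These were 1.63%, 3.93% and 2.25%, where over all peaks of the lists it was 4.10%, 4.54% and 2.41%, so that in ΔNTR and ΔCTR the members were near the share of all peaks. In COL1A1 they held 151 of 452, 57 of 373 and 162 of 737. In COL1A2 they held 152 of 280, 80 of 252 and 147 of 397.

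Base composition around the member peaks was close to that of other peaks of the same region. In the 31 nt around the centre of the 31 FL peaks in member 3'UTRs, C and T made up 55.3% ± 10.7 (SD over peaks), against 54.2% ± 12.5 for all 6836 FL peaks in 3'UTRs. For coding peaks the values were 48.4% ± 10.4 in the members and 49.9% ± 11.1 in all. Peaks of 1 mRNA share their sequence context and are not independent.

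The next question was whether the variants met the members at the sites of full-length LARP6. Of the 70 FL member peaks, 38 (54.3%, Wilson interval 42.7 to 65.4) were overlapped by a ΔNTR peak and 40 (57.1%, 45.5 to 68.1) by a ΔCTR peak. Over all FL peaks the shares were 35.3% and 37.9%. Both variants overlapped 29 of the 70 (41.4%, against 24.8% of all FL peaks), and neither did so for 21 of the 70, against 51.6% of all FL peaks. These shares come from comparisons with the same FL list. None was taken over genes of like RNA level. Member peaks were wider, at a median of 26.5 nt against 22 nt over all FL peaks. P4HB and PLOD2 held 20 and 17 of the 70, so the higher shares are not said to be particular to the members.

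The share rose with the score of the FL peak. All 13 FL member peaks of 10 or more were overlapped by ΔNTR, and 12 of them by ΔCTR, against 88.2% and 93.2% of the 1929 such FL peaks. The exception for ΔCTR was the exon 9 peak of P4HB. Of the 34 member peaks at the score of 3, ΔNTR overlapped 9 (26.5%) and ΔCTR 13 (38.2%), against 17.0% and 18.1% of all FL peaks at that score. Where an overlap had to cover 50% of both peaks, the shares over all 70 were 34.3% and 25.7%.

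P4HB had 15 of 20 FL peaks overlapped by ΔNTR and 13 by ΔCTR, and PLOD2 had 11 of 17 overlapped by each. In LOX the numbers were 4 and 5 of 10, in LOXL2 3 and 4 of 8. Conversely, 51 of 90 ΔNTR member peaks and 41 of 84 ΔCTR member peaks overlapped no FL peak (56.7% and 48.8%). Over all peaks of these lists 69.9% and 65.6% overlapped none. The highest such score was 8 in ΔNTR and 9 in ΔCTR in the members, and 83 and 28 over all peaks. LOX contributed 13 of the 51 in ΔNTR.

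The members' score was first taken over the list totals. Their share of the total was 1.09 times that in FL for ΔNTR (0.959 to 1.24) and 0.941 times for ΔCTR (0.831 to 1.07). Both intervals included 1, but scaled to the number of peaks the ΔNTR ratio turned to 0.822 (0.724 to 0.934). Single members differed more, and their sums were therefore set against the input of the same lines. The adjusted ratio used below divides the ratio of score shares by the ratio of CPM, and both variants were divided by the same FL list and library.

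In ΔNTR none of the 7 members that could be compared had an adjusted score 2-fold higher or lower than in FL. PLOD3 and SERPINH1 had too low a score. Of the 1720 genes whose scores in the FL and ΔNTR lists added up to 20 or more, 14.2% were at least 2-fold higher and 15.8% at least 2-fold lower. The 7 members had a median of -0.33 on the log2 scale, against 0.01 for all. The direction turned to 0.07 without the input and to 0.07 with the single-end input, a small-RNA library with few reads of these mRNAs. LOXL2, at 34 against 48, had the lowest adjusted ratio of these, 0.566 (0.354 to 0.897), and its interval was the only one of the 9 that left out 1. That interval takes the input ratio of 1.38, from 1 library per line, as exact. Before the input was divided out, the share ratio of LOXL2 was 0.783 (0.489 to 1.24), which included 1. LOX scored 80 in ΔNTR and 54 in FL, a share 1.64 times higher, while its CPM was 1.77 times higher, which left an adjusted ratio of 0.926 (0.648 to 1.33).

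In ΔCTR 1 member of 8, SERPINH1, was past 2-fold. Of 1881 genes, 11.5% were at least 2-fold higher and 10.2% at least 2-fold lower, so the members' share was near that of other genes. The SERPINH1 sums were 19 and 7, with an adjusted ratio of 2.25 and an interval of 0.907 to 6.34 that included 1. With a pseudocount of 5 on the score it was no longer past 2-fold.

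LOX and P4HB moved apart in ΔCTR. LOX scored 106 against 54 in FL, an adjusted ratio of 1.54 (1.097 to 2.17), of which the 133 nt peak alone held 48. P4HB scored 126 against 162, a ratio of 0.673 (0.529 to 0.854). With the single-end small-RNA library in place of PE150, the LOX value turned from 0.61 to -0.60 on the log2 scale. LOX had only 7 to 17 counts there in these lines, so that value says little about its mRNA level. Intervals of the other 7 members included 1. PLOD2, whose exon 4 site scored 43 in FL and 26 in ΔCTR, had a ratio of 0.809 over the gene (0.617 to 1.06).

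**Figure D4:**
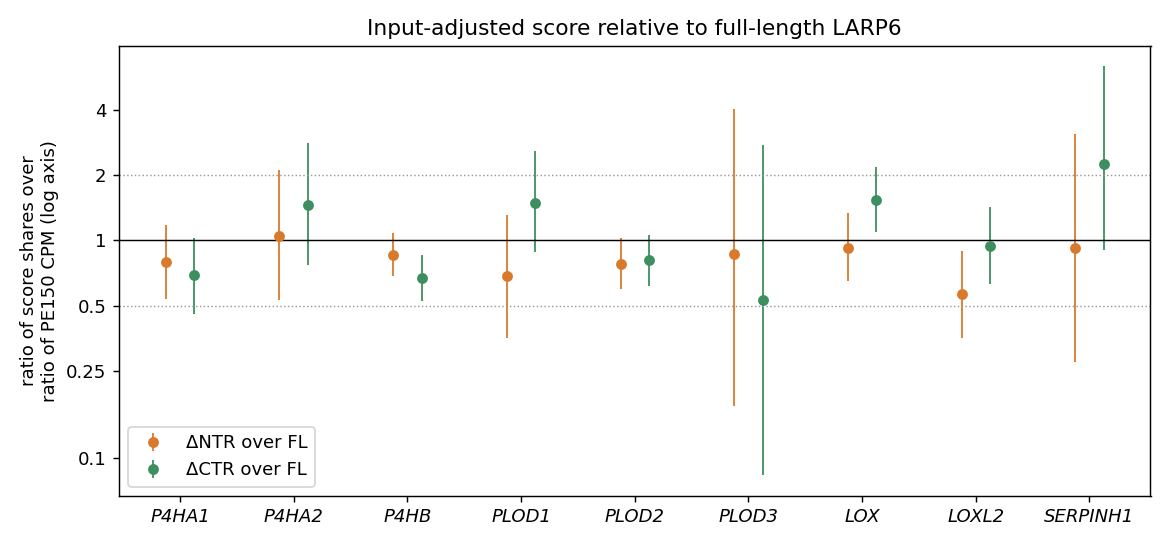
Ratio of score shares over the ratio of PE150 CPM (y axis, log) for ΔNTR and ΔCTR relative to FL in each gene, with 95% intervals of the score ratio. Dotted lines mark 2-fold. In ΔCTR the interval of LOX lies above 1 and that of P4HB below 1, in ΔNTR that of LOXL2 lies below 1, and the intervals of PLOD3 and SERPINH1 are the widest.

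The RNA levels of the members themselves differed between the lines. Per kilobase of canonical transcript, P4HB was the most abundant member at a median of 303 CPM over the 6 lines (295 to 361), and PLOD3 the least at 27.2 (24.2 to 27.8). Between them stood PLOD2 at 157 (102 to 188), LOXL2 at 92.8 (83.3 to 119), LOX at 74.5 (38.8 to 106), PLOD1 at 71.8 (56.4 to 85.7), P4HA1 at 63.0 (41.7 to 73.4), SERPINH1 at 58.7 (54.4 to 65.1) and P4HA2 at 55.0 (43.9 to 67.2). The ranges of P4HB and PLOD3 met no neighbour, and all other neighbours in this order overlapped.

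LOX showed the widest range. Its level was 197 CPM in the parental line, 304 in FL, 336 in ΔCTR, 420 in ΔNTD, 425 in ΔLa-module and 538 in ΔNTR. PLOD2 was at 383, 512, 519, 700, 656 and 704 CPM in the same order. P4HA1 was at 114, 155, 155, 198, 201 and 190 CPM. In all these genes the parental line was lowest, FL and ΔCTR lay close together, and the other 3 lines were highest.

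P4HA2 stood at 200 CPM in the parental line, 224 in FL, 220 in ΔCTR and 276 to 305 in the other lines. PLOD1 stood at 168, 200 and 203 CPM and at 224 to 255 in the others. P4HB, PLOD3 and SERPINH1 varied least, with the highest line 1.22, 1.15 and 1.197 times the lowest. LOXL2 was highest in ΔNTR at 442 CPM and lowest in the parental line at 310.

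Counted against the parental line, a change of at least 1.5-fold upwards was seen for 1 member in FL (LOX), where 0.643% of the 15076 genes passed, and for the same gene in ΔCTR, where 0.895% did. In ΔNTR it was seen for 5 (LOX, PLOD2, P4HA1, P4HA2 and PLOD1) with 3.84% of genes passing. In ΔLa-module and ΔNTD it was seen for 3 (LOX, PLOD2 and P4HA1) with 2.16% and 1.45% passing. No member was 1.5-fold lower in any line, where the share of all genes that were so was 0.524% with FL, 0.617% with ΔCTR, 0.968% with ΔLa-module, 1.31% with ΔNTR and 1.53% with ΔNTD. All 5 comparisons use the same parental library, and in such bulk libraries more RNA per cell and more cells with the RNA cannot be told apart.

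The fold of LOX was 2.73 in ΔNTR (2.64 to 2.82), 2.16 in ΔLa-module, 2.13 in ΔNTD, 1.71 in ΔCTR and 1.54 in FL. In ΔNTR 0.206% of all genes changed as much as LOX did in either direction. PLOD2 reached 1.84 in ΔNTR and 1.83 in ΔNTD, and P4HA1 1.76 in ΔLa-module. SERPINH1 stayed between 0.917 in FL and 1.097 in ΔNTR. The median log2 change of the 9 was 0.14 with ΔCTR, 0.17 with FL, 0.42 with ΔNTD, 0.47 with ΔLa-module and 0.60 with ΔNTR, where the median of all genes lay between -0.0072 and -0.0017.

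**Figure D5:**
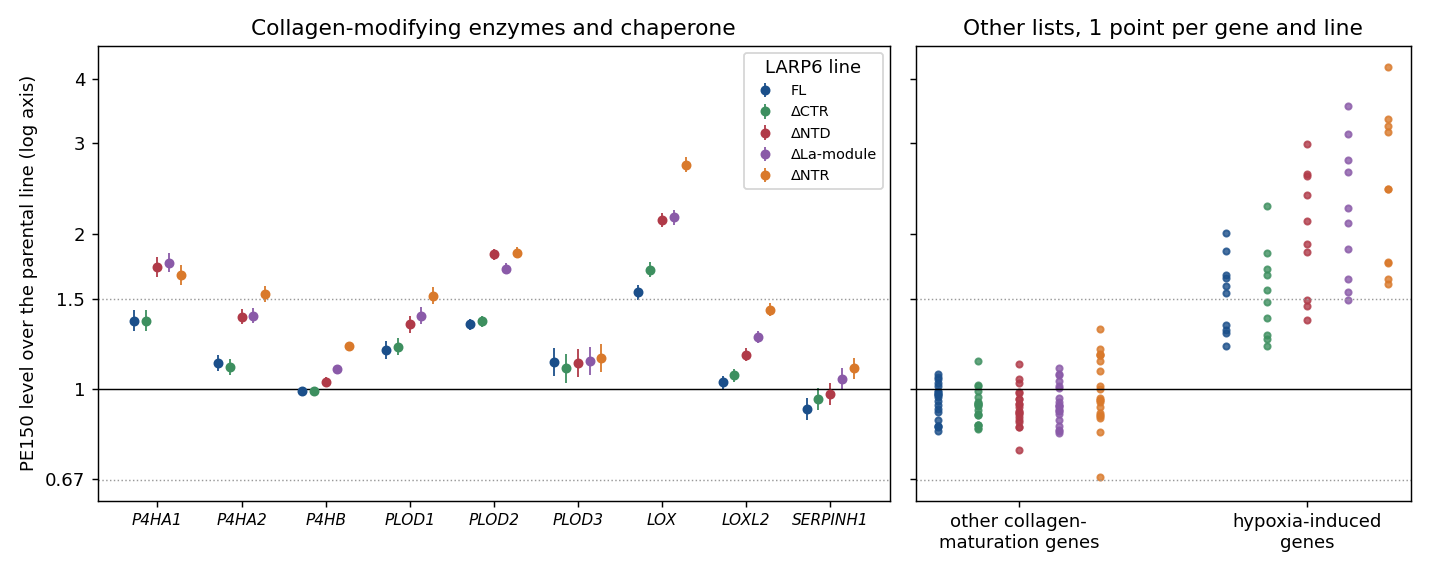
PE150 level over the parental line (y axis, log) for the 9 genes in each LARP6 line (left, bars are 95% intervals for counting error) and for single genes of both comparison lists (right). Dotted lines mark 1.5-fold. LOX, PLOD2 and P4HA1 rise highest on the left, the other collagen-maturation genes stay inside 1.5-fold in all lines on the log2(CPM + 1) scale, and hypoxia-induced genes lie above the parental level.

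Other genes of collagen maturation did not move with them. The list held 25 genes (prolyl 3-hydroxylases, further oxidases and hydroxylase subunits, procollagen proteinases, chaperones and export factors), of which 20 reached 1 CPM. None of the 20 was 1.5-fold higher or lower than the parental line in any of the 5 lines on the log2(CPM + 1) scale, and their median log2 change lay between -0.13 and -0.04. LOXL1, an oxidase of the LOX family, was at 83.1 CPM in the parental line and 97.6 in ΔNTR. ADAMTS3, a procollagen proteinase singled out after its values were seen, was at 10.8 CPM in the parental line and 6.97 in ΔNTR, and with a pseudocount of 0.1 CPM it was past 1.5-fold lower there.

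LOX, PLOD2 and P4HA1, named here as the members that rose most, are also known as genes that hypoxia induces. The other members were not sorted by this property, so it is not said to set these genes apart. A list of 10 other hypoxia-induced genes (CA9, VEGFA, ADM, ANKRD37, BNIP3, PDK1, EGLN3, NDRG1, SLC2A1, KDM3A) was counted beside them. At least 1.5-fold higher than in the parental line were 5 of the 10 with ΔCTR, 6 with FL, 7 with ΔNTD, 9 with ΔLa-module and 10 with ΔNTR, and none was lower. Of all 15076 genes, 0.895%, 0.643%, 1.45%, 2.16% and 3.84% were as much higher in these lines, in the same order. Their summed level ran from 1105 CPM in the parental line to 2737 in ΔNTR. The glucose transporter SLC2A1 went from 77.0 to 260 CPM between these lines and the carbonic anhydrase CA9 from 56.2 to 241. The part of this list in the levels of LOX, PLOD2 and P4HA1 was not tested.

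In the peak lists the other collagen-maturation genes were mixed. Of the 25, 12 held an FL peak, 10 a ΔNTR peak, 11 a ΔCTR peak, 1 (PCOLCE) a ΔLa-module peak and none a ΔNTD peak. SPARC, a collagen-binding matrix protein, scored 102 for FL, 182 for ΔNTR and 186 for ΔCTR, and PPIB, the prolyl isomerase cyclophilin B, 78, 90 and 132. COLGALT1, which adds galactose to hydroxylysine, scored 16, 43 and 36, CRTAP, a partner of prolyl 3-hydroxylase, 15, 27 and 22, and FKBP10, another prolyl isomerase, 7, 11 and 8. Only 4 genes of this list had enough score to be compared in ΔNTR. Of these, COLGALT1 and CRTAP were past 2-fold in adjusted score, with log2 changes of 1.28 and 1.09. Over all 1720 genes compared, 14.2% were at least 2-fold higher. The sums of both genes are small and no interval was taken for them.

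Some genes elsewhere in the data had nearly the same score per count in these lists as the strongest members. Among 1153 protein-coding genes whose scores in these lists added up to 50 or more, HMGA1 was nearest to P4HB (Euclidean distance of 0.04 on the log2 scale), then S100A10 (0.12) and RPLP2 (0.17). HS3ST3A1 (0.02), WSB2 (0.11) and ESYT1 (0.15) were nearest to PLOD2. ERLIN2 (0.17), ACTN4 (0.17) and PIEZO1 (0.20) were nearest to P4HA1. The points share their lists and libraries, and the measure carries no test.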

How the data were processed

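iCLIP of 6 U-87 MG lines (3 replicates each) and 12 input libraries were used. For iCLIP the authors discarded rRNA and tRNA reads with Bowtie2, aligned the rest with STAR on the iMAPS server to GRCh38.p13 (GENCODE v42), removed PCR duplicates with UMI-tools, called peaks with Clippy in each replicate, merged them, summed their scores and subtracted parental peaks with bedtools 2.30.0. Each deposited peak carries this sum as its score, a whole number of at least 3 that is not scaled to depth, and iCLIP read totals were not used here. Input values are the deposited counts per gene from STAR 2.7.10b (reverse-strand column for PE150, forward-strand column for SE50, the 50 nt single-end small-RNA libraries).

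Peaks were assigned by their centre with GENCODE v44 on GRCh38 (bedtools 2.31.1) to coding sequence, 5'UTR, 3'UTR, noncoding exon and intron, in this order. Counts were scaled by TMM (edgeR 4.0.16) to CPM, genes under 1 CPM in all PE150 libraries were left out, and changes are log2(CPM + 1) differences, which understate changes of low genes. The adjusted score change is the log2 ratio of score shares (pseudocount 1) less that of CPM, for genes whose scores in both lists add up to 20 or more, with a PE150 count of at least 1 in both lines. Lists overlapped at 1 nt or more on the same strand. Sums have exact Poisson intervals, shares Wilson intervals and ratios exact conditional binomial intervals, all treating the score as a count. No test was run, since each list and library stands alone. Of 62750 gene identifiers, 62672 matched the annotation. The calculations were tested on simulated data. The members and all lists were chosen with earlier results of these data known. Named were all 9 members, the highest FL peak of each and every member peak of 10 or more, the 5 highest FL scores and any 2-fold change of the collagen-maturation list, and the 3 genes nearest to each of the 3 highest members. Scaling, pseudocount, filters, strand, overlap and annotation were varied.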

Additional observations from a re-analysis of the deposited data

How the results depend on the processing

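Of 62 alternative values, 42 stayed within 1.5 times (counts) or within the interval (values) of the value given. With scores above 3 only, the members kept 36 FL peaks and a score of 389, and ΔNTR overlapped 66.7% of them. Calling 3'UTR before coding sequence gave a 3'UTR share of 78.6%, and the canonical transcript, chosen after seeing the data, 44.3%. An overlap of 50% of both peaks gave 34.3% for ΔNTR and 25.7% for ΔCTR. The members' share over FL was 0.822 for ΔNTR when scaled to the number of peaks (0.724 to 0.934, leaving out 1) and 1.09 for ΔCTR when scaled to shared sites. That last scaling moved the median adjusted change of all genes to 0.22 in ΔCTR and -0.13 in ΔNTR, and the genes past 2-fold to 16.7% higher and 6.70% lower in ΔCTR and 10.9% and 19.4% in ΔNTR. LOXL2 in ΔCTR then turned from -0.09 to 0.12 and P4HA2 in ΔNTR from 0.05 to -0.09.

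Members past 2-fold in adjusted score numbered 1 in ΔNTR with the SE50 input (LOX) and 1 at 1.5-fold (LOXL2). In ΔCTR they numbered 3 with the SE50 input (P4HA2, P4HA1, P4HB), 0 with a pseudocount of 5, 0 with a summed score of at least 50, and 2 at 1.5-fold (LOX, SERPINH1). The SE50 libraries are small-RNA libraries and held 2 to 38 counts per member. Against the parental line, LOX in FL was lost with unstranded counts (0 members), and at 2-fold the numbers were 0 for FL and ΔCTR and 1 each for ΔNTR, ΔLa-module and ΔNTD (LOX). Total counts, DESeq2 size factors, a pseudocount of 0.1 CPM and no filter gave the same numbers of members in all 5 lines.

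No paired analysis was possible because the peak lists used here pool the numbered replicates and each line has 1 PE150 library, so leaving out a replicate was not run. Peaks were called in each replicate from 3 counts upwards, so a site below that in every replicate is not in these lists. The absence of a peak in a member of low score, such as SERPINH1 or PLOD3, is therefore limited by depth.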
